A study of Oryctolagus cuniculus with 12 samples.

Results

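Hyaluronan, the large unbranched sugar polymer of the dermal matrix, was followed through the genes that make it, bind it and break it down in normal and scarred rabbit ears. The genes were chosen by symbol, HAS1, HAS2, HAS3, VCAN, CD44, TNFAIP6, HYAL1, HYAL2, CEMIP and HMMR, and 9 of these 10 symbols were found among the 29587 genes of the table. HAS1 was not found under its symbol and was not analysed here. No symbol was repeated, and 8 of the 9 genes reached the mean FPKM of 1 that was required for testing, HMMR being the exception at 0.989. FPKM counts sequenced fragments per length of gene and per size of the library, so that levels of different genes can be set side by side.

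Full thickness ear tissue of female rabbits of 10 to 12 weeks, all labelled WT, was taken on day 43 after skin resection, with 12 samples in 4 groups of 3 and with 3 rabbits assigned to each group. NS was normal ear skin without treatment. HS was hypertrophic scar without treatment, grown from 4 round wounds of 7 mm made on the ventral surface of each ear, in which epidermis, dermis and perichondrium had been removed. The drug-loaded MNs group, also called MN-treated scars, had the same kind of scar treated with 1 patch per lesion of separating microneedles, whose tips hold gelatin methacryloyl and a peptide prodrug that releases 5-fluorouracil acetic acid. The 5-Fu injection group, or injected scars, received 0.1 mL of 5-fluorouracil solution (120 μg) in each lesion, and both treatments were given on days 22, 29 and 36. Nothing in the labels says whether a sample joined several lesions, and p-values measure the spread between these samples. The tissue spans both skin faces and the ear cartilage, and in such bulk samples fewer cells of a type and less RNA per cell cannot be told apart.

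Hyaluronan is made at the plasma membrane by the synthases HAS1, HAS2 and HAS3, which join glucuronic acid and N-acetylglucosamine taken from their UDP-activated forms. Outside the cell the chain is held by proteoglycans such as versican (VCAN), by the cell surface receptor CD44 and by TSG-6 (TNFAIP6), which moves heavy chains of inter-alpha-inhibitor onto it. Its turnover begins with the extracellular factor CEMIP and the hyaluronidases HYAL2 and HYAL1, and ends in lysosomes. In skin, fibroblasts and keratinocytes both produce hyaluronan, and the polymer is abundant in healing wounds.

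The reads on genes, counted back from the FPKM, ranged from 10521472 to 14043667 per sample. The library size inside the FPKM was 1.12 to 1.20 times the reads in NS and 0.873 to 0.932 times in HS, so the deposited values had already been scaled between samples. Rescaling the values to the reads moved the median log2 fold change of all 13287 tested genes between HS and NS from -0.01 to -0.33. In the table under their symbols were 8 of 14 keratinocyte markers, 9 of 10 fibroblast markers and 11 of 11 cartilage markers. None of these was at 0 in any sample. Values above 0 do not test the skin labels, since the endothelial and Schwann cell markers in the table were never at 0 either. The summed FPKM of the fibroblast markers was 2538 to 3531 in NS, 37686 to 49357 in HS, 19221 to 27607 with drug-loaded MNs and 5160 to 27113 with the injection, whose replicate 2 was the highest. Most of the HS sum came from COL1A1, COL1A2 and COL3A1, with means of 15711, 14066 and 8262, so it mainly follows collagen transcripts. Means in NS and HS were 87.4 and 173 for PDGFRB, 31.5 and 65.6 for DPT, and 150 and 3331 for LUM.

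Groups were compared with limma on log2(FPKM + 1), with all 12 samples in 1 fit. A gene was called when its Benjamini-Hochberg adjusted p was under 0.05 and its absolute log2 fold change above 1, and only called genes are said to have risen or fallen. Between HS and NS, 2 of the 8 tested hyaluronan genes rose, VCAN and TNFAIP6, and 0 fell. Among all tested genes 3.53% rose and 1.48% fell, 5.0% in all. With the FPKM rescaled to the reads, 311 genes of the table rose and 749 fell, in place of 469 and 196. The median log2 fold change was 0.63 over the 8 genes and -0.01 over all tested genes. HS and NS samples were apart in 5 of the 8 genes, with HS above in VCAN, TNFAIP6, HAS2 and CEMIP and below in HAS3, as they were in 33.3% of the tested genes.

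**Figure D1:**
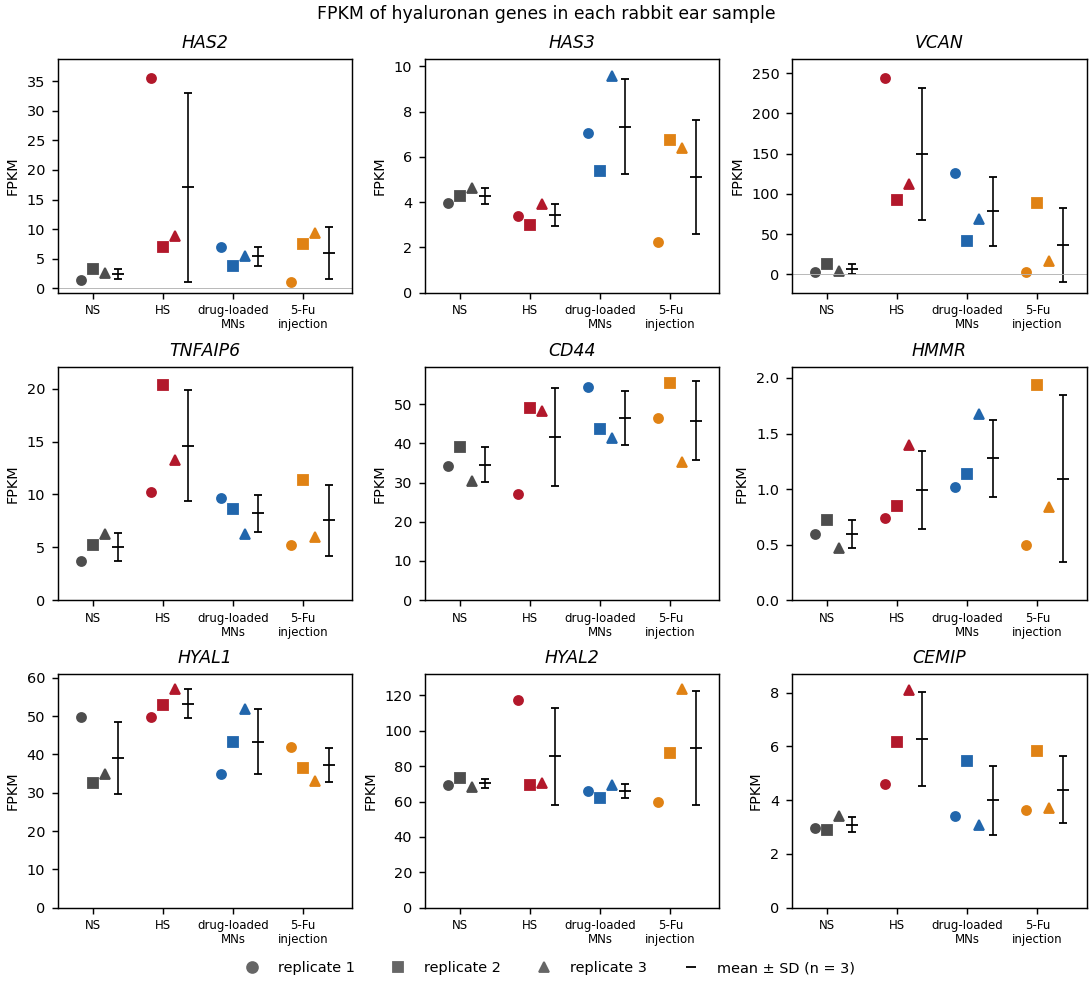
FPKM (vertical axis, from 0) of the 9 hyaluronan genes in each of the 12 samples, by group, with symbols for the replicate and the mean ± SD (n = 3) beside the points. HS replicate 1 stands highest for VCAN at 244 and for HAS2 at 35.5, while HYAL1 and CD44 overlap between NS and HS.

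HAS2, the synthase known for long hyaluronan chains in mesenchymal cells, is listed as ENSOCUG00000027106 on chromosome 3 from 137492349 to 137519897. The genome build behind this and the other positions is not given in the sources used here. HAS2 FPKM was 1.49, 3.21 and 2.66 in the NS samples, 35.5, 7.01 and 8.80 in HS, 6.96, 3.86 and 5.40 in MN-treated scars, and 1.01, 7.47 and 9.33 in injected scars. Every HS sample was above every NS sample, and HS replicate 1 was far above the other two. The mean of HS was 6.97 times that of NS, and the log2 fold change of 2.07 (standard error, SE, 0.65, 95% interval 0.65 to 3.49) missed the threshold (limma adjusted p = 0.0783). Without HS replicate 1 it was 1.39, and without 5-Fu injection replicate 1, which enters only the estimate of the spread, the gene was called (limma adjusted p = 0.0280). HAS2 was carried by 36 to 1091 reads per sample, so that the counting error of the lowest sample was 16.7%.

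All drug-loaded MNs samples lay below all HS samples in HAS2, and above all NS samples. The difference of drug-loaded MNs from HS was -1.18 on the log2 scale (SE 0.65, 95% interval -2.60 to 0.24, limma adjusted p = 0.631). The 5-Fu injection samples straddled the other groups, with replicate 1 below every NS sample and replicate 3 above HS replicates 2 and 3, and their difference from HS was -1.34 (SE 0.65, limma adjusted p = 0.216).

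HAS3, a synthase known in keratinocytes among other cells, is listed as ENSOCUG00000016595 on chromosome 5 from 24520422 to 24528678. Its FPKM was 3.94, 4.26 and 4.62 in NS, 3.40, 2.97 and 3.93 in HS, 7.07, 5.38 and 9.55 in MN-treated scars, and 2.22, 6.74 and 6.39 in injected scars. Unlike in HAS2, HS had the lowest group mean of HAS3 and drug-loaded MNs the highest. The gap between HS and NS was small, 3.93 against 3.94 at its closest, and its log2 fold change was -0.25 (limma adjusted p = 0.665). The drug-loaded MNs samples were all above every HS and every NS sample, at a log2 fold change against HS of 0.89 (SE 0.31, 95% interval 0.20 to 1.57, limma adjusted p = 0.442). That gene was read 46 to 171 times per sample. In HAS3 the treated groups overlapped, since replicate 1 of the injection was the lowest of all 12 samples and replicates 2 and 3 were above every HS sample.

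Keratinocyte markers were also compared between the groups. The summed FPKM of the 8 markers in the table was 4206 to 7634 in NS, 2149 to 3090 in HS, 6042 to 12772 in MN-treated scars and 4406 to 8651 in injected scars. Of these 8, KRT15, KRT2 and KRT5 were called lower in HS than in NS, beside 1.48% of all tested genes. In MN-treated scars 8 of 8 had a higher mean than in HS, at a median log2 fold change of 1.57, and 0 were called. There 7 had an unadjusted p under 0.05, beside 1183 of all 13287 tested genes. Without overlap 7 lay above HS, beside 8.53% of all tested genes. In injected scars 8 of 8 had a higher mean than in HS, at a median of 1.07, and KRT15 was called, beside 0.512% of all tested genes. None of the 8 was at 0 in any sample, and KRT14 was not found under its symbol. The highest HAS3 value, in drug-loaded MNs replicate 3, belonged to the sample with the highest keratinocyte sum, and the lowest HAS3 value, in 5-Fu injection replicate 1, to the sample with the second highest. The part of the markers in the HAS3 values was not tested.

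Within a sample, the ratio of HAS2 to HAS3 needs no scaling between samples. This ratio of FPKM was 0.377, 0.754 and 0.576 in NS and 10.4, 2.36 and 2.24 in HS, so that HAS3 led in every NS sample and HAS2 in every HS sample. In MN-treated scars it was 0.984, 0.718 and 0.566, below 1 as in NS. In injected scars it was 0.456, 1.11 and 1.46, between the highest NS sample and the lowest HS sample in replicates 2 and 3. The ratio was chosen for display without a test.

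**Figure D2:**
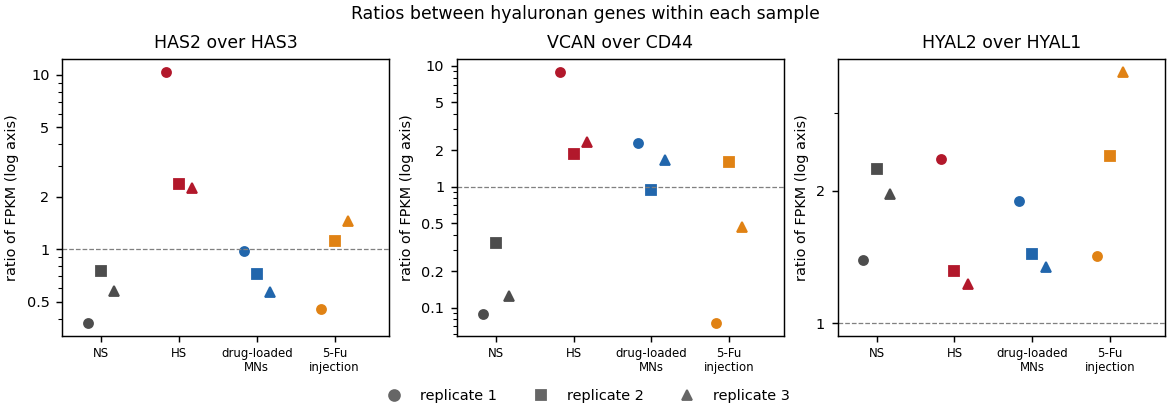
Ratio of FPKM (log axis) between pairs of hyaluronan genes within each of the 12 samples, by group, with a dashed line where both genes are equal. HAS2 over HAS3 is above 2 in the 3 HS samples and below 1 in the NS and drug-loaded MNs samples, VCAN over CD44 is below 1 in NS and above 1 in HS, and HYAL2 over HYAL1 is above 1 in all 12 samples.

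VCAN had the largest log2 fold change of the 8 tested genes between HS and NS. It encodes versican, a large chondroitin sulfate proteoglycan that binds hyaluronan in provisional matrix, and is listed as ENSOCUG00000002613 on chromosome 11 from 3706590 to 3812479. Its FPKM was 3.02, 13.4 and 3.79 in NS, and every HS sample was far higher, at 244, 92.0 and 113. The mean rose 22.1 times, from 6.75 ± 5.81 (SD, n = 3) to 149 ± 82.2, with a log2 fold change of 4.39 (SE 0.92, 95% interval 2.38 to 6.41, limma adjusted p = 0.0167). In HS it had the highest mean FPKM of the 9 genes, ahead of HYAL2, whereas in NS it was below CD44, HYAL1 and HYAL2. The call was lost without NS replicate 1 (log2 fold change 4.05, limma adjusted p = 0.0699) and without HS replicate 1 (3.98, limma adjusted p = 0.0674).

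In MN-treated scars VCAN FPKM was 125, 41.5 and 69.0, and replicate 1 of this group was above HS replicates 2 and 3. The log2 fold change against HS was -0.93 (SE 0.92, 95% interval -2.94 to 1.08, limma adjusted p = 0.82). Against NS every drug-loaded MNs sample was higher, at 3.47 (SE 0.92, limma adjusted p = 0.126), and this passed the threshold with only these groups in the fit (limma adjusted p = 0.0431).

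In injected scars VCAN FPKM was 3.45, 89.2 and 16.4. Replicate 1 was within the NS range, replicate 3 just above it, and replicate 2 just below the lowest HS sample, so no sample reached the HS range. The log2 fold change against HS was -2.84 (SE 0.92, 95% interval -4.86 to -0.83) and missed the threshold (limma adjusted p = 0.0895). Without 5-Fu injection replicate 2 it was -3.96 and passed (limma adjusted p = 0.0114). Set directly against each other, drug-loaded MNs exceeded 5-Fu injection by 1.92 (SE 0.92, 95% interval -0.09 to 3.93, limma adjusted p = 0.35). In the order of group means, HS, drug-loaded MNs, 5-Fu injection and NS, each pair of neighbours overlapped in VCAN.

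Fibroblast markers were called in more comparisons than VCAN, which was called only between HS and NS. Of 9 markers, 7 were called higher in HS than in NS (COL1A1, COL1A2, COL3A1, DCN, FAP, LUM and POSTN), beside 3.53% of all tested genes. In injected scars 3 were called lower than in HS (COL1A1, COL3A1 and LUM), beside 1.78%. In MN-treated scars 4 were called higher than in NS (COL1A1, COL1A2, COL3A1 and LUM), beside 0.79%. The sample of the injection group with the most VCAN, replicate 2, was also that with the most summed fibroblast FPKM. Within HS the order was the reverse, since replicate 1 had the most VCAN (244) and the lowest fibroblast sum (37686), and replicate 2 the least VCAN (92.0) and the highest sum (49357). The ratio of VCAN to each of the 9 markers, tallied after their values had been seen, was higher in every HS sample than in every NS sample for 4 markers, DCN, DPT, FAP and PDGFRB, and overlapped for the other 5, COL1A1, COL1A2, COL3A1, LUM and POSTN. VCAN over FAP, the fibroblast activation protein, was 0.169 to 1.32 in NS and 2.19 to 8.4 in HS. VCAN over COL1A1, a chain of type I collagen, was 0.00337 to 0.0191 in NS and 0.00485 to 0.0191 in HS. HAS2, TNFAIP6, CEMIP and HYAL1 likewise had their highest group mean in HS, where the fibroblast sum, mostly of collagen transcripts, was above all other groups. The part of fibroblast content in the values of these 4 genes and of VCAN was not tested.

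**Figure D3:**
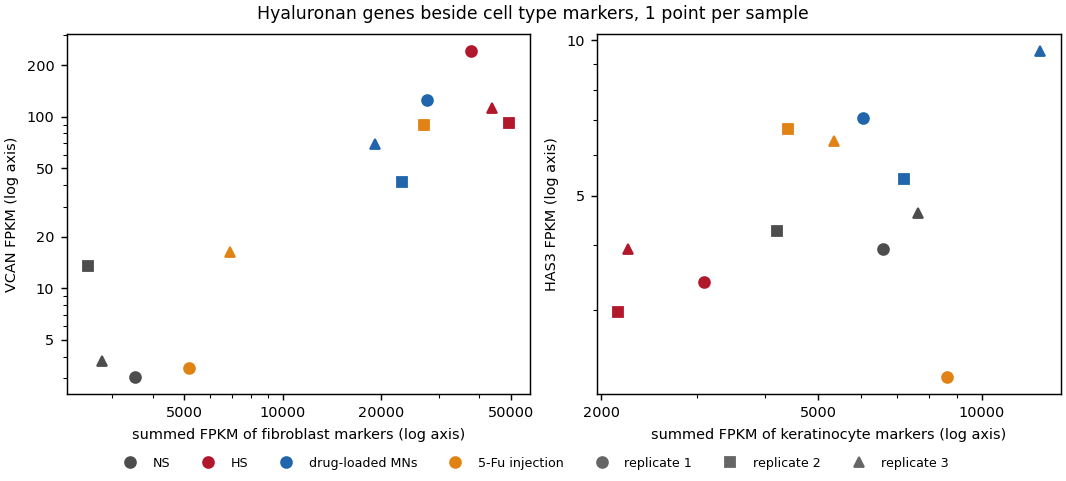
VCAN FPKM against the summed FPKM of 9 fibroblast markers (left) and HAS3 FPKM against the summed FPKM of 8 keratinocyte markers (right), 1 point per sample on log axes, with colour for the group and shape for the replicate. NS and 5-Fu injection replicates 1 and 3 lie at low fibroblast sums with VCAN of at most 16.4, and drug-loaded MNs replicate 3 lies highest on both axes of the right panel.

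TNFAIP6, the gene of TSG-6, which is induced by inflammatory signals and crosslinks hyaluronan through heavy chain transfer, is listed as ENSOCUG00000013688 on chromosome 7 from 90349588 to 90368345. Its FPKM was 3.67, 5.19 and 6.30 in NS and 10.2, 20.4 and 13.2 in HS, and the mean rose 2.89 times. The log2 fold change was 1.34 (SE 0.31, 95% interval 0.66 to 2.02, limma adjusted p = 0.0259). The order among the HS samples was not that of VCAN and HAS2, since HS replicate 1 was the lowest of the 3 here. The call was lost without each of NS replicate 1, NS replicate 2, HS replicate 2 and HS replicate 3, at log2 fold changes from 1.09 to 1.38 and limma adjusted p of 0.106, 0.0621, 0.0931 and 0.0672.

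In MN-treated scars TNFAIP6 FPKM was 9.71, 8.63 and 6.26, each below all HS samples, and in injected scars 5.23, 11.4 and 6.00. The log2 fold changes against HS were -0.73 (SE 0.31, 95% interval -1.41 to -0.05, limma adjusted p = 0.534) and -0.89 (SE 0.31, 95% interval -1.57 to -0.20, limma adjusted p = 0.11). Replicate 2 of the injection was again the highest of its group, and without it the second difference was -1.19 and passed (limma adjusted p = 0.0315). Macrophage markers, 10 of 10 in the table and 9 tested, had a summed FPKM of 172 to 331 in NS, 265 to 440 in HS, 195 to 367 in MN-treated scars and 163 to 502 in injected scars. Of the 9, 0 were called between HS and NS, where 3 had an unadjusted p under 0.05 and limma voom called 1. Over all 13287 tested genes, 3109 had an unadjusted p under 0.05 there and limma voom called 681. All 9 macrophage markers had a higher mean in HS than in NS, with a median log2 fold change of 1.00 beside 1.34 for TNFAIP6, and all 9 a lower mean in MN-treated scars than in HS, with a median of -0.69 beside -0.73. Their part in the TNFAIP6 change was not tested.

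CD44, the main cell surface receptor for hyaluronan, is listed as ENSOCUG00000000715 on chromosome 1 from 174451133 to 174728828 and was called in none of the 6 comparisons, 0 of which reached an unadjusted p under 0.05. Its FPKM was 34.2, 39.2 and 30.3 in NS, 27.2, 49.1 and 48.4 in HS, 54.4, 43.7 and 41.4 in MN-treated scars, and 46.5, 55.4 and 35.3 in injected scars. HS replicate 1, the sample with the most VCAN and HAS2, had the least CD44 of all 12 samples. The difference between HS and NS was 0.22 (SE 0.24, 95% interval -0.31 to 0.74, limma adjusted p = 0.625) and changed sign to -0.14 with the FPKM rescaled to the reads. Against HS the differences were 0.20 (95% interval -0.33 to 0.72, limma adjusted p = 0.854) in MN-treated scars and 0.16 (95% interval -0.37 to 0.69, limma adjusted p = 0.705) in injected scars. The ratio of VCAN to CD44 in FPKM was 0.0884 to 0.343 in NS and 1.87 to 8.97 in HS. It was 0.948 to 2.31 in MN-treated scars, and 0.0742, 1.61 and 0.464 in the 5-Fu injection samples.

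HMMR, a hyaluronan-binding protein that also acts on the mitotic spindle, is listed as ENSOCUG00000022126 on chromosome 3 from 44689554 to 44723956 and was the least expressed of the 9 genes. Its FPKM was 0.592, 0.721 and 0.471 in NS, 0.735, 0.847 and 1.39 in HS, 1.02, 1.13 and 1.67 in MN-treated scars, and 0.5, 1.94 and 0.837 in injected scars. Each NS sample was below each HS and each drug-loaded MNs sample, on 23 to 83 reads per sample and a counting error of 11.0% to 20.9%. Without the filter on low values the log2 fold change of HS against NS was 0.31 (SE 0.24, limma adjusted p = 0.561) and that of drug-loaded MNs against NS 0.50 (SE 0.24, limma adjusted p = 0.502). Of 15 tested genes of mitosis, 15 had a higher mean in HS than in NS and 2 rose, CCNB2 and TOP2A, beside 3.53% of all tested genes. Their median log2 fold change was 0.72, and the sum over the 16 such genes in the table was 41.0 to 66.6 in NS and 85.7 to 107 in HS. In MN-treated scars 15 of the 15 had a higher mean than in NS, at a median of 0.78. Of these 15, 12 had an unadjusted p under 0.05 and 0 were called, beside 1718 and 116 of all 13287 tested genes. Their part in the HMMR values was not tested.

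Of the 3 genes for breakdown, 0 were called by limma or by limma voom between HS and NS, and 2 had an unadjusted p under 0.05, HYAL1 at 0.032 and CEMIP at 0.00683. In that comparison 3109 of all 13287 tested genes had an unadjusted p under 0.05, and limma voom called 681. HYAL2, a hyaluronidase anchored at the cell surface, and HYAL1, its lysosomal partner, lie near each other on chromosome 9, from 17786080 to 17788289 (ENSOCUG00000005254) and from 17750071 to 17751979 (ENSOCUG00000005619). HYAL2 had the highest mean FPKM of the 9 genes in NS and in injected scars, and was above HYAL1 in all 12 samples, at a ratio of 1.23 to 3.72. HYAL2 FPKM was 69.2, 73.1 and 68.4 in NS, 117, 69.3 and 70.3 in HS, 66.2, 62.2 and 69.6 in MN-treated scars, and 59.8, 87.5 and 124 in injected scars. HS replicate 1 and 5-Fu injection replicate 3 stood above the rest, and the other HS samples were within the NS range. The log2 fold change of HYAL2 between HS and NS was 0.24 (95% interval -0.32 to 0.80, limma adjusted p = 0.613), and it was -0.01 without HS replicate 1 and -0.12 with the FPKM rescaled to the reads.

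HYAL1 FPKM was 49.8, 32.6 and 34.8 in NS, 49.8, 52.8 and 57.2 in HS, 34.9, 43.2 and 51.9 in MN-treated scars, and 42.0, 36.4 and 33.2 in injected scars. The HS and NS groups met at NS replicate 1 and HS replicate 1, and the log2 fold change was 0.46 (SE 0.19, 95% interval 0.05 to 0.87, limma adjusted p = 0.168). All 5-Fu injection samples were below all HS samples in HYAL1, at -0.51 (SE 0.19, 95% interval -0.92 to -0.10, limma adjusted p = 0.123), whereas the drug-loaded MNs samples overlapped with HS at -0.31 (95% interval -0.72 to 0.11, limma adjusted p = 0.663).

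CEMIP, an extracellular protein needed for hyaluronan breakdown by fibroblasts, is listed as ENSOCUG00000022315 on the unplaced scaffold GL018737. Its FPKM was 2.97, 2.90 and 3.41 in NS, 4.59, 6.18 and 8.08 in HS, 3.43, 5.46 and 3.09 in MN-treated scars, and 3.63, 5.84 and 3.71 in injected scars. Every HS sample was above every NS sample and the HS mean was 2.03 times the NS mean, but the log2 fold change of 0.80 (SE 0.24, 95% interval 0.27 to 1.34, limma adjusted p = 0.0713) missed both thresholds. In each treated group replicate 2 remained within the HS range while replicates 1 and 3 lay below it. Against HS the differences were -0.55 (95% interval -1.08 to -0.01, limma adjusted p = 0.554) in MN-treated scars and -0.43 (95% interval -0.96 to 0.11, limma adjusted p = 0.289) in injected scars.

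**Figure D4:**
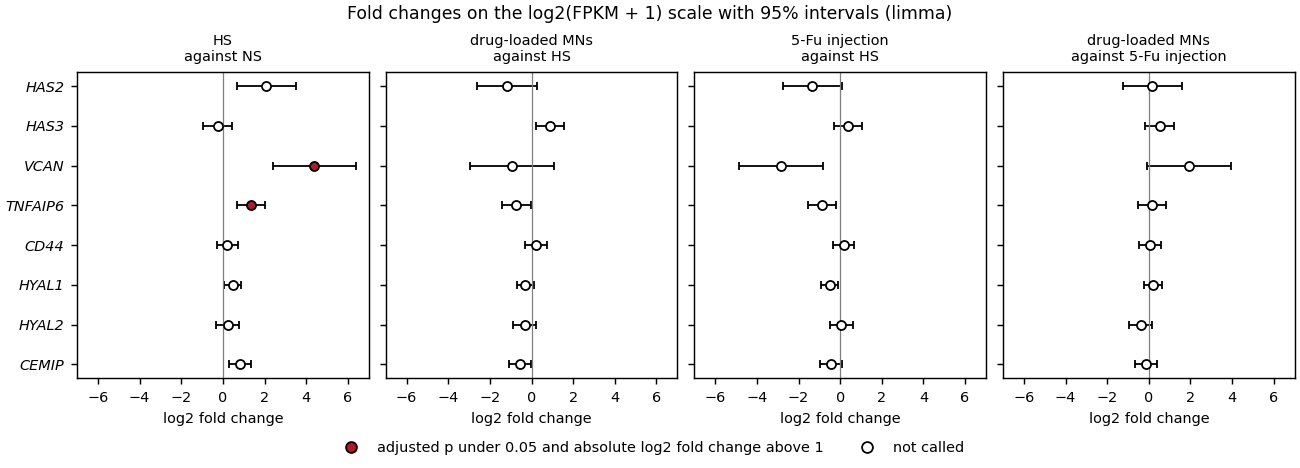
Log2 fold change of the 8 tested hyaluronan genes with 95% intervals from limma, on the log2(FPKM + 1) scale, in 4 comparisons, with filled points for called genes. VCAN at 4.39 and TNFAIP6 at 1.34 are the 2 called genes, both between HS and NS, and no point is filled in the comparisons of the treated groups.

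Read across the treatments, 0 of the 8 genes were called by limma between drug-loaded MNs and HS, where 3 had an unadjusted p under 0.05 (HAS3, TNFAIP6 and CEMIP) and limma voom on the reads called 0. Among all 13287 tested genes 0.00753% were called, 1183 had an unadjusted p under 0.05 and limma voom called 0. Between 5-Fu injection and HS, 0 of the 8 were called by limma against 2.29% of all genes. Of the 8, 3 had an unadjusted p under 0.05 (VCAN, TNFAIP6 and HYAL1) and limma voom called 0. Over all 13287 tested genes, 3449 had an unadjusted p under 0.05 there and limma voom called 396. Both comparisons share the HS samples. The median log2 fold change of the 8 genes was -0.44 in MN-treated scars and -0.47 in injected scars, beside -0.02 and 0.02 over all tested genes. The MN-treated scars lay apart from HS in 3 genes, below it in HAS2 and TNFAIP6 and above it in HAS3, where 10.3% of all genes lay below, 8.53% above and 18.9% on either side. The injected scars lay apart from HS in 2 genes, below it in VCAN and HYAL1, where 16.4% of all genes lay below and 30.3% on either side, and 1.78% of all genes were called lower.

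In the direct comparison of the treatments 0 of the 8 genes were called by limma or by limma voom, and 0 had an unadjusted p under 0.05. Of all 13287 tested genes, 0.0% were called and 2009 had an unadjusted p under 0.05. The difference of drug-loaded MNs from 5-Fu injection ranged from -0.39 in HYAL2 (95% interval -0.94 to 0.17) to 1.92 in VCAN, so differences of more than 1 remained within the interval for VCAN, HAS2 and HAS3. None of the 8 genes separated the treatments, while 17.1% of all genes did, 8.64% being higher and 8.42% lower with drug-loaded MNs. Against NS, 0 of the 8 genes were called by limma or limma voom after either treatment, with 1 and 0 at an unadjusted p under 0.05, beside 0.873% of all genes called with drug-loaded MNs (0.79% higher and 0.0828% lower) and 0.00753% with the injection. Over all 13287 tested genes, 1718 and 1981 had an unadjusted p under 0.05, and limma voom called 93 and 1. MN-treated scars were above all NS samples in 4 genes, VCAN, CD44, HAS2 and HAS3, where 20.6% of all genes were apart, 11.5% above and 9.11% below. Injected scars were above all NS samples in CEMIP, where 18.8% of all genes were apart, 9.6% above and 9.16% below.

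The members also differed in how they varied within groups. After the group means were taken out of log2(FPKM + 1), HAS2 and HYAL2 deviated together over the 12 samples at a Pearson r of 0.93. HAS2 and VCAN did so at 0.75, HAS3 and VCAN at 0.69, and HAS2 and HAS3 at 0.68. CD44 ran against HYAL2 at -0.68. These values describe 12 samples that share groups and libraries, with HS replicate 1 and 5-Fu injection replicate 1 at the ends of HAS2. Over the 12 samples and 9449 other tested genes with a symbol, the genes closest in pattern to VCAN were NID1 at r = 0.97, NDNF at 0.96 and EMILIN1 at 0.95. NID1 encodes nidogen, a basement membrane protein, and EMILIN1 a glycoprotein of elastic fibres. Those closest to TNFAIP6 were LHFPL2 at 0.97, LRRC75A at 0.96 and ATF6, a sensor of endoplasmic reticulum stress, at 0.94.

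Other genes of hyaluronan metabolism were taken from a list of 48 symbols, of which 37 were in the table and 27 were tested. Between HS and NS 3 of the 27 rose, ADAMTS5, PGM3 and GUSB, and 0 fell, where 3.53% of all tested genes rose and 1.48% fell. The list's median log2 fold change was 0.65, and 13 of the 27 were higher without overlap and 1 was lower, beside 18.0% and 15.3% of all tested genes. With single samples left out between 1 and 4 were called, and ADAMTS5 was called in each case. In MN-treated scars against HS 0 of the 27 were called by limma or limma voom. Of the 27, 2 had an unadjusted p under 0.05, beside 1183 of all 13287 tested genes. The lower mean was in 21, with a median of -0.24. Without overlap 6 were lower and 0 higher, beside 10.3% and 8.53% of all tested genes. In injected scars against HS 1 fell (limma voom called 2), where 1.78% of all tested genes fell, 20 had the lower mean and the median was -0.21. There 5 of the 27 had an unadjusted p under 0.05, beside 3449 of all 13287 tested genes. Without overlap 4 were lower and 0 higher, beside 16.4% and 13.9% of all tested genes.

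ADAMTS5, a protease that cuts versican and aggrecan, had an FPKM of 3.03, 3.29 and 2.34 in NS and 12.6, 12.8 and 10.6 in HS. The mean rose 4.17 times, at a log2 fold change of 1.75 (SE 0.26, limma adjusted p = 0.00379). Its values were 13.7, 8.63 and 9.20 in MN-treated scars, a range that held the HS samples, and 3.82, 8.45 and 3.94 in injected scars, all below HS. Against HS it differed by -0.20 in MN-treated scars (limma adjusted p = 0.868) and fell by 1.09 in injected scars (SE 0.26, limma adjusted p = 0.0438), a call that was lost in 10 of 12 cases with a sample left out. It was lost as well with only these groups in the fit (limma adjusted p = 0.116), without the filter (0.0784), with the replicate block (0.0655), with the FPKM rescaled to the reads (0.0596) and with quantile normalization (0.0516). Against NS it rose in MN-treated scars, at 1.55 (limma adjusted p = 0.0251, but 0.0573 without the filter on low values and 0.0568 with the replicate block), and this call was lost without each single NS or drug-loaded MNs sample (limma adjusted p from 0.057 to 0.113). As in VCAN, replicate 2 was the highest of the injection group.

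Among the genes that supply the sugars of the chain, PGM3, an enzyme on the way to UDP-N-acetylglucosamine, had an FPKM of 16.6, 17.2 and 21.0 in NS and 38.7, 40.7 and 46.2 in HS and rose at a log2 fold change of 1.16 (SE 0.26, limma adjusted p = 0.0231). It was 36.3, 30.9 and 25.0 in MN-treated scars and 16.2, 36.5 and 32.5 in injected scars, below HS in every treated sample, at -0.45 (limma adjusted p = 0.65) and -0.62 (limma adjusted p = 0.164). The call of PGM3 in HS was lost with the FPKM rescaled to the reads (0.81, limma adjusted p = 0.0512), as was that of GUSB (0.74, limma adjusted p = 0.061), and each was lost in 5 of 12 cases with a sample left out.

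GFPT1, GFPT2 and UGDH were looked at after their values had been seen. GFPT1 and GFPT2 encode the same first step of hexosamine synthesis and lay on opposite sides. GFPT1 FPKM was 8.22 to 10.6 in NS and 15.5 to 29.5 in HS, a difference of 0.98 (limma adjusted p = 0.063), and GFPT2 FPKM was 19.9 to 30.5 in NS and 6.90 to 17.0 in HS, a difference of -0.97 (limma adjusted p = 0.148). With the FPKM rescaled to the reads GFPT2 passed, at -1.31 (limma adjusted p = 0.035), as did EZR, a linker of CD44 to actin also named after its values were seen, at -1.13 (limma adjusted p = 0.0161). UGDH, which makes UDP-glucuronic acid, was 30.5 to 34.2 in NS and 40.1 to 40.8 in HS, a difference of 0.30 (limma adjusted p = 0.51). All drug-loaded MNs samples were below all HS samples in both GFPT1 and UGDH, at -0.85 (limma adjusted p = 0.416) and -0.57 (limma adjusted p = 0.548). In injected scars GFPT1 was also below HS in every sample, at -1.08 (limma adjusted p = 0.0556), and it was called by limma voom (adjusted p = 0.0467), with a filter at a mean FPKM of 5 (0.0478) and without 5-Fu injection replicate 2 (0.0177).

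GUSB, the lysosomal beta-glucuronidase, which acts on the ends of hyaluronan fragments, had an FPKM of 20.9, 22.7 and 18.1 in NS and 38.1, 52.3 and 44.7 in HS, and rose at 1.09 (SE 0.25, limma adjusted p = 0.0267). GUSB overlapped with HS after both treatments, at -0.42 in MN-treated scars (limma adjusted p = 0.662) and -0.18 in injected scars (limma adjusted p = 0.693). SPAM1, the sperm hyaluronidase, was listed at 0 in all 12 samples.

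ACAN, the cartilage proteoglycan aggrecan, averaged 211 ± 86.6 FPKM in NS (SD, n = 3), 198 ± 155 in HS, 185 ± 85.3 in MN-treated scars and 158 ± 114 in injected scars, and HAPLN1, the link protein that fixes aggrecan to hyaluronan and lies near VCAN on chromosome 11 from 3881315 to 3959066, had 165 ± 60.7, 93.5 ± 104, 114 ± 83.4 and 77.7 ± 41.6. The groups overlapped in both genes between HS and NS, at log2 fold changes of -0.28 (limma adjusted p = 0.844) and -1.36 (limma adjusted p = 0.337). Both genes are on the list of 11 cartilage markers, whose summed FPKM ran from 1859 to 3797 in NS, 808 to 5758 in HS, 1066 to 5724 in MN-treated scars and 611 to 5972 in injected scars. The sum of 808 was in HS replicate 1, which had the most VCAN and HAS2. That of 5972 was in 5-Fu injection replicate 1, lowest of its group in HAS2, HAS3 and VCAN. Replicate 3 of HS (5758) and of drug-loaded MNs (5724) was not lowest of its group in these genes. The part of cartilage content in these values was not tested. ADAMTS1, another protease of versican, was 32.7 ± 9.21 in NS and 58.4 ± 6.35 in HS, a difference of 0.85 (limma adjusted p = 0.153).

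PTX3, a pentraxin that joins TSG-6 and heavy chains in the hyaluronan matrix, was named after its values had been seen. Its FPKM was 6.96, 27.4 and 1.93 in NS, 27.2, 23.4 and 23.4 in HS, 6.59, 8.54 and 9.58 in MN-treated scars, and 3.36, 25.9 and 22.6 in injected scars. All drug-loaded MNs samples were below all HS samples, at a log2 fold change of -1.48 (SE 0.78, limma adjusted p = 0.613), and the gene was the 1 of the 27 called when only those groups entered the fit (limma adjusted p = 0.0384). In NS and in injected scars its samples spanned both the HS and the drug-loaded MNs levels.

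**Figure D5:**
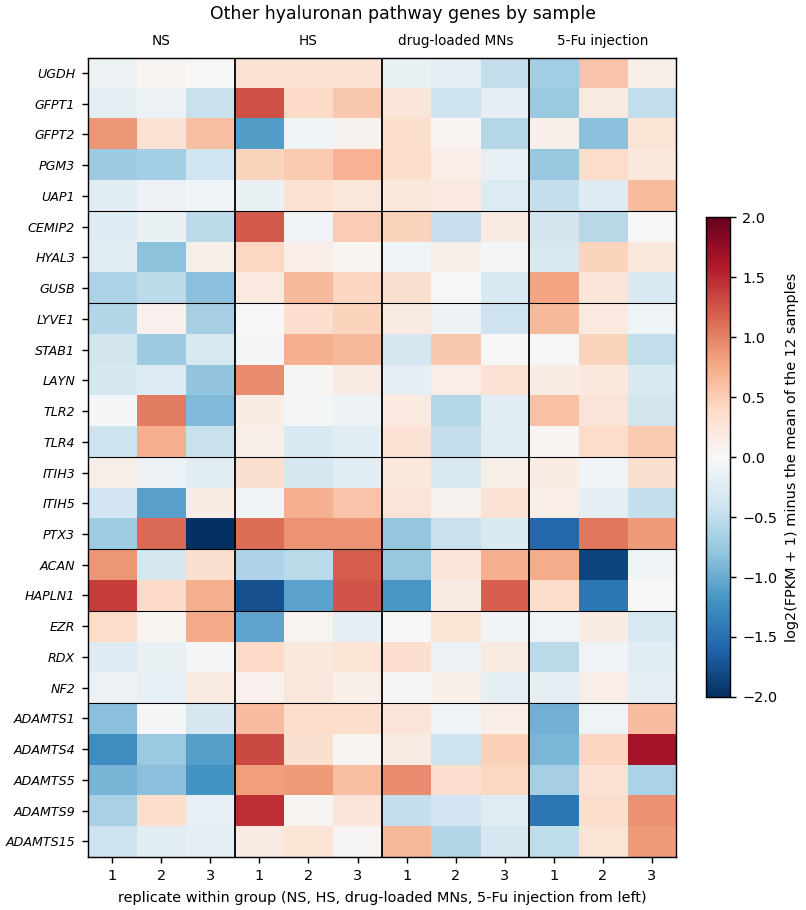
Log2(FPKM + 1) of 26 other tested hyaluronan pathway genes minus their mean over the 12 samples (colour, cut at -2 and 2), 1 column per sample, with genes in blocks by role from sugar supply at the top to versican proteases at the bottom. ADAMTS5 and PGM3 are higher in the 3 HS columns than in the 3 NS columns, and PTX3 is lower in the drug-loaded MNs columns than in the HS columns.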

How the data were processed

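RNA was measured in 12 samples of rabbit ear, grouped by their titles. Per the labels, libraries were made from poly-A RNA, and the authors deposited their values as FPKM. The aligner, counting tool, genome build and annotation are not given in the sources used here. Dividing each FPKM by the worth of 1 read gave whole numbers for 100% of values (tolerance 0.05 of a read), so that reads could be counted back. The authors ran DESeq2 for their own comparisons. Here limma 3.58.1 in R 4.3.3 was fitted to log2(FPKM + 1) of the 13287 genes whose mean FPKM reached 1, with the 4 groups in 1 model, empirical Bayes moderation with a trend and Benjamini-Hochberg adjustment within each comparison. The script was tested on simulated data. Fold changes on this scale understate those of low genes.

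The genes and lists were chosen with earlier results of these data known. Named were all hyaluronan genes found, pathway and marker genes called in a comparison, the 4 pathway genes of highest mean FPKM, and for each called hyaluronan gene the 3 genes of highest Pearson r. Others are marked where they appear. Of these, 1 pathway gene is not reported here. The alternatives were a pseudocount of 0.1, no filter, a filter at 5, quantile normalization, rescaling to the reads, limma voom on the reads with TMM factors, only the compared groups, no trend, adjusted p alone, a replicate block, and each sample left out. For the pathway list they were added after its values had been seen. Counting errors cover counting only. Other data of the study were not analysed here.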

Additional observations from a re-analysis of the deposited data

How the results depend on the processing

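Over 1050 alternative fold changes of the 8 tested genes in 6 comparisons (48 results), 1017 kept direction and call, 6 lost a call, 6 gained a call and 21 changed sign. Part of this was fixed beforehand. Leaving out a sample of a group not compared, or changing only the filter or the test, left the fold change itself as it was. VCAN and TNFAIP6 between HS and NS were the only calls of the main fit, so keeping the call mostly meant staying uncalled. CEMIP has no value at a mean FPKM of at least 5. With the FPKM rescaled to the reads, the log2 fold change changed sign in CD44 (-0.14) and HYAL2 (-0.12) between HS and NS, in HYAL1 between MN-treated scars and NS (-0.056) and in HAS3 between injected scars and NS (-0.074). The number of hyaluronan genes called between HS and NS, 2, ran from 0 to 3 with single samples left out, being 0 without NS replicate 1, 1 without NS replicate 2 or any HS replicate, and 3 without 5-Fu injection replicate 1. Between injected scars and HS it ran from 0 to 2, with 2 without 5-Fu injection replicate 2. Between MN-treated scars and NS it ran from 0 to 1, with 1 (VCAN) without 5-Fu injection replicate 1 or 2, and it was 1 as well with only these groups in the fit. The cause of these shifts was not tested.

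With single samples left out, the log2 fold changes that changed sign ran, for HYAL2 in HS against NS, from -0.0084 to 0.37, and in injected scars against HS from -0.20 to 0.32. For CD44 they ran from -0.076 to 0.34 in MN-treated scars against HS, from -0.11 to 0.33 in injected scars against HS, and from -0.13 to 0.18 between the treatments. Between the treatments HAS2 ran from -0.58 to 0.60, TNFAIP6 from -0.037 to 0.46 and CEMIP from -0.32 to 0.065. In injected scars against NS, HAS3 ran from -0.11 to 0.52 and HYAL1 from -0.17 to 0.13. VCAN in HS against NS ran from 3.98 to 4.97.

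Samples sharing a replicate number came from different rabbits, and their deviations correlated at -0.27 to 0.44, so the numbers do not pair them. Fitted as a replicate block, the numbers left 2 hyaluronan genes called between HS and NS and 0 in the other comparisons, and moved the calls over all genes from 304 to 99 between injected scars and HS and from 116 to 23 between MN-treated scars and NS. Over all genes, calls ran with single samples left out from 382 to 749 (main 665) between HS and NS, from 0 without HS replicate 2 to 803 without 5-Fu injection replicate 2 between injected scars and HS, and from 0 without NS replicate 2 to 176 between MN-treated scars and NS. With only the compared groups in the fit they were 37 between MN-treated scars and HS (1 with all 12 samples) and 0 between injected scars and HS. HMMR, on 23 to 83 reads, had the least depth.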
